A study of Acipenser ruthenus with 15 samples.

Results

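The comparison sets section E, the segment at the vegetal pole of a sterlet egg, against section D, the segment next to it. It asks which RNAs are concentrated in the outermost vegetal segment rather than spread over the vegetal side. The sterlet, Acipenser ruthenus, is a sturgeon. The comparison uses 6 of the 15 libraries of the series, chosen by their section label: section E of eggs 10, 18 and 20, and section D of the same 3 eggs. Single eggs were embedded and cut on a cryostat, and the slices form 5 segments that run from A at the animal pole, the side that holds the nucleus, to E at the vegetal pole. The labels give the eggs as oocytes of Stage 1, with no genotype or treatment, and the females they came from and their age are not given. Each library is therefore 1 segment of 1 egg. P-values weigh a difference against the variation that remains once each egg's own overall level of a transcript is taken out. That variation was estimated over all 15 libraries and not over sections E and D alone. Ribosomal RNA was removed before sequencing, and the remaining RNA was counted per assembled transcript.

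In eggs that divide as a whole, such as those of frogs and sturgeons, the yolk-rich vegetal side forms gut tissue and nourishes the embryo. In the frog Xenopus, maternal RNAs are carried to the vegetal cortex during egg growth and held there, among them RNAs that specify endoderm and RNAs of the germ plasm, the cytoplasm that marks future germ cells. Sturgeon germ cells also arise from the vegetal side of the egg. An RNA held at the vegetal cortex is the kind of RNA that a comparison of the outermost vegetal segment with its neighbour can show.

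No transcript can be called by a gene name. The files list 42878 transcripts by assembly IDs, and 0 of these matched the annotated sterlet genes, so lists of germ plasm and vegetal genes could not be applied. No sequence is printed for the same reason, and the segments could not be checked against known markers of the vegetal pole. The 6 libraries hold 7269021 to 14500611 counts each. Levels are counts scaled to a common library total (CPM) with TMM, a factor that equalizes the bulk of the transcripts between libraries. They give a transcript's share of its library, so a higher share and a lower amount of all other RNA cannot be told apart.

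Section E held a small set of RNAs at higher levels than section D. Of 29102 transcripts tested, 78 were higher in section E, which is 0.268%, and 4 were higher in section D, which is 0.0137%, or 0.282% in either direction (edgeR's quasi-likelihood test with section and egg as terms over all 15 libraries, adjusted p under 0.05). All 78 were higher in E in 3 of 3 eggs, and for 75 of them every E library stood above every D library, a separation found for 4.22% of all transcripts tested. The 78 were chosen on these same libraries, so both counts describe them and are no further evidence. Of the 4, 2 were separated the other way, against 2.70% of all. At an unadjusted p under 0.05 stood 2257 transcripts, 7.76%. The ratio of E to D had a median of 1.65 over the 78 transcripts and ran from 1.35 to 6.61. It was at least 2 for 21 of them and at least 4 for 8. Together the 78 held 1.25, 1.22 and 1.18% of the counts of section E in eggs 10, 18 and 20, against 0.680, 0.690 and 0.742% in section D. The share was lower again further inward, at 0.414 ± 0.0213% in C, and 0.270 ± 0.00566% in B and 0.246 ± 0.0115% in A (SD, n = 3). The 78 were abundant RNAs, with a median of 77.6 CPM over the 6 libraries, against 7.84 CPM for all transcripts tested. Intervals of the E to D ratio were narrower at high levels, so a call was easier to reach there. A trait of these RNAs and the ease of a call cannot be told apart here.

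The number of calls depended on the libraries. Leaving out an egg or a single library of D or E left 9 to 41 transcripts higher in E and 0 to 3 higher in D. All 78 kept a positive change in each of these 9 fits. They were already higher in E in 3 of 3 eggs, so this was nearly fixed in advance and is no separate evidence. A fit to the 6 libraries of sections E and D alone, again with the egg as a block, called 462 transcripts higher in E, which is 1.79% of 25750 tested, 77 of the 78 among them, and 137 higher in D, which is 0.532%. Without the egg as a block 4 were higher in E and 0 in D. The authors' own factor lowers every E level against D, compared with the TMM scale. On it the split was 72 higher in E and 3514 higher in D, in place of 78 and 4.

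**Figure D1:**
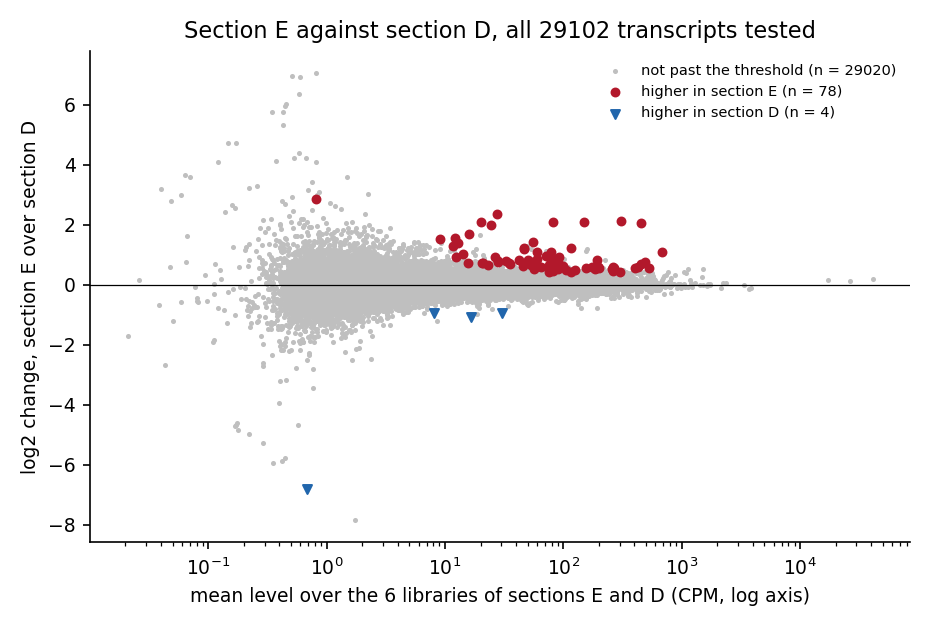
Change of section E over section D (log2, vertical) against mean level over the 6 libraries (CPM, log axis), 1 point per transcript tested. The 78 red points, called higher in E, lie mostly to the right, with 69 of them at 20 CPM or more, and the 4 blue triangles were called higher in D.

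The steepest rise was shared by 7 transcripts, each at least 4-fold higher in section E and at least 5 CPM on average. Their levels summed to 1729 ± 606 CPM in section E and to 396 ± 66.1 CPM in section D (SD, n = 3). Further toward the animal pole the sum was 107 ± 25.7 CPM in C, 13.8 ± 1.8 CPM in B and 11.2 ± 4.1 CPM in A. On the TMM scale, section E alone held 74.8 to 81.3% of the level of each of the 7, summed over the sections. Sections A and B together held at most 1.70%. These 7 are the only ones of the 78 called in each of the 9 fits that left out an egg or a library. The 7 were chosen for large ratios in the same libraries, and each fit keeps most of those libraries. The kept calls are therefore no separate evidence. Their adjusted p ran from 1.52e-07 to 0.0007 (edgeR with Benjamini-Hochberg adjustment).

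The largest change among these 7 was that of trinitytrinLocGG_5183c1g2t1. It stood at 55.4 CPM in egg 10, 31.4 CPM in egg 18 and 52.1 CPM in egg 20 in section E, against 7.09, 8.19 and 10.6 CPM in section D of the same eggs. The groups do not overlap, and the lowest E library is far above the highest D library. Behind these levels were 470, 215 and 653 counts in E and 53, 109 and 85 counts in D. The mean was 46.3 ± 13.1 CPM in E and 8.64 ± 1.82 CPM in D, a 5.36-fold difference and a log2 change of 2.37 ± 0.20 (SE). The adjusted p was 1.27e-05 (edgeR with Benjamini-Hochberg adjustment), and the call held in every alternative tried, with log2 changes of 2.10 to 2.61. Section C held 1.93 ± 0.648 CPM of it, and sections A and B less than 0.15 CPM in every library. This RNA was close to absent from the animal side, and section E held 81.3% of its summed level.

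Summed over the 7, section E held 2308, 1099 and 1780 CPM in eggs 10, 18 and 20, against 422, 321 and 445 CPM in section D. The ratios of the single transcripts differed between eggs but were above 3 in each. They were 4.44 to 7.82 in egg 10, 3.09 to 4.08 in egg 18 and 3.14 to 4.90 in egg 20. Egg 10 gave the largest ratio for 7 of 7 and egg 18 the smallest for 5 of 7. Of the 7, 3 carry an ID of the genome-guided assembly and the others of the de novo assembly, and 2 share an assembly component, so those 2 may be pieces of related RNAs. No other component contributed more than 1 of the 78 transcripts.

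**Figure D2:**
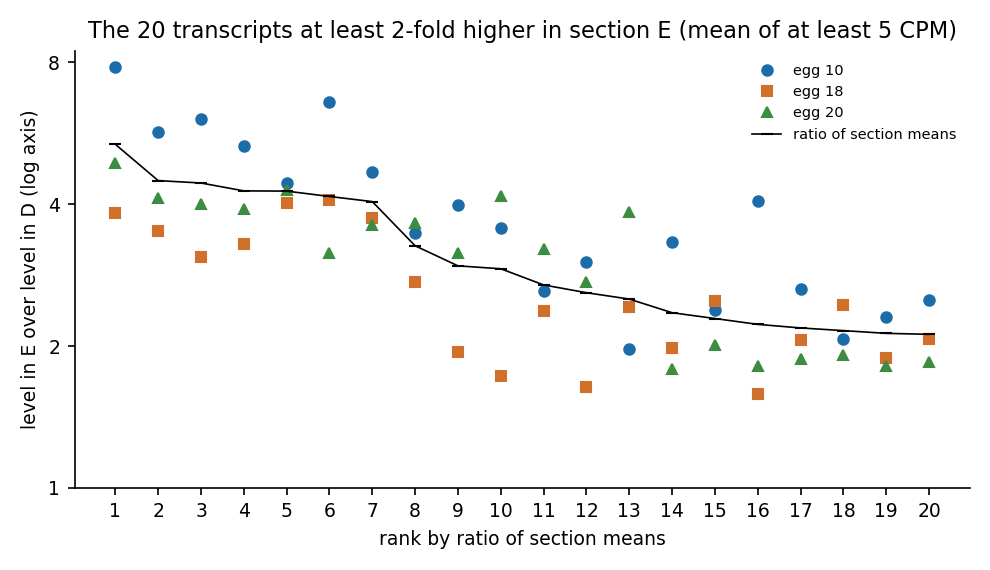
Level in section E over level in section D (log axis) in each egg for the 20 transcripts with a ratio of at least 2 and a mean of at least 5 CPM, ordered by the ratio of section means (black line). All points lie above 1, and the 7 transcripts on the left have ratios of 3.09 to 7.82 in single eggs.

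A further 13 transcripts were 2.12 to 3.26-fold higher in section E. For 11 of the 13 the E and D libraries did not overlap. Section E held 53.4 to 72.8% of their summed level and section D 21.1 to 28.3%. The most abundant of all 78 belongs here. trinitytrinLocDN53952c0g1t2 stood at 935, 1004 and 835 CPM in section E of eggs 10, 18 and 20, against 373, 485 and 452 CPM in section D. Every E library was above every D library, with means of 925 ± 84.8 CPM in E and 437 ± 57.8 CPM in D (SD, n = 3), a 2.12-fold difference. Its log2 change was 1.08 ± 0.12 (SE), with an adjusted p of 0.000509 (edgeR with Benjamini-Hochberg adjustment). That call ended without egg 18, where the adjusted p was 0.0563, and also in the fit with no egg term, at 0.173. The same RNA stood at 146 ± 35.4 CPM in C, 23.3 ± 2.4 CPM in B and 13.9 ± 3.17 CPM in A.

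The other 57 transcripts with at least 5 CPM were 1.35 to 1.93-fold higher in E. They were mixed in distribution. Their median level from A to E was 27.0, 26.1, 41.2, 67.1 and 109 CPM. Section E held a median of 39.0% of the summed level, from 20.6 to 58.7% in single transcripts. Of the 57, 41 were called higher in C than in A, against 8.79% of all transcripts, and 4 lower, against 8.48%. The last of the 78 was a scarce RNA with 44 counts in the 3 E libraries against 5 in the 3 D libraries, 0 of these in egg 18. Its 6.61-fold ratio is the largest but rests on those few counts, and its level was highest at the animal pole, at 5.95 CPM in section A.

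**Figure D3:**
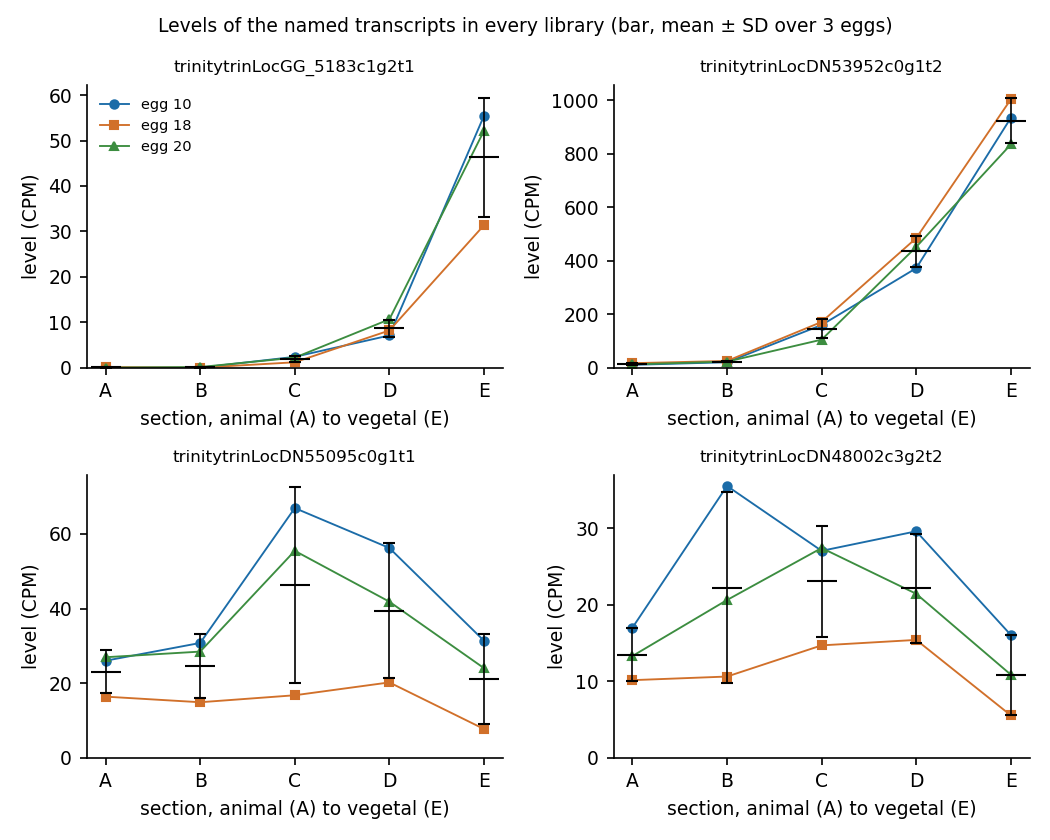
Level (CPM) of the 4 named transcripts in every library, by section from animal (A) to vegetal (E), with 1 line per egg and black bars for mean ± SD over the 3 eggs. The upper pair, trinitytrinLocGG_5183c1g2t1 and trinitytrinLocDN53952c0g1t2, increase toward E in each egg, and the lower pair, trinitytrinLocDN55095c0g1t1 and trinitytrinLocDN48002c3g2t2, are lower in E than in D in each egg.

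Sections A and C enter neither the E nor the D values, so the change from A to C describes the 78 transcripts apart from the comparison that chose them. Of the 78, 61 were higher in C than in A, where 8.79% of all transcripts were called so. In the other direction, 5 were lower in C than in A, against 8.48% of all transcripts, and 12 had no call. In either direction 17.3% of all transcripts were called. The median log2 change from A to C was 1.02 for the 78 and 0.02 for all transcripts tested. From B to C the median of the 78 was 0.78, and 58 of the 78 were higher in C than in B (background 5.85%) and 2 were lower (background 2.85%, or 8.70% in either direction). From A to B it was 0.12, and 8 were higher in B (background 0.735%) and 4 were lower (background 2.65%, or 3.39% in either direction). All libraries come from the same 3 eggs and were fitted together. The backgrounds were not matched for level, and the 78 are more abundant than most transcripts and so easier to call in any contrast.

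These classes differed in shape along the axis on the TMM scale. The A to C call that splits them and the choice of E above D set much of each shape in advance. The shapes are therefore description only. The spike-in took 0.0208 to 0.0235% of counts in D, against 0.0115 to 0.0165% in A, B and C. With it as scale the rise from C to D would be smaller. In the 61 transcripts higher in C than in A, the median shares of the summed level from A to E were 5.46, 6.42, 13.9, 25.2 and 46.1%. In the 12 without a call the share was nearly even over A, B and C, at 14.2, 12.4 and 15.1%, then 22.7% in D and 36.0% in E. Their ratio of E to D was 1.35 to 1.90, and all 12 had E libraries above D libraries without overlap. The most abundant of these stood at 620 CPM in E and 364 CPM in D, with 257 CPM in A. In the 5 lower in C than in A the median shares from A to E were 31.3, 16.0, 11.8, 15.8 and 26.2%. The single transcripts differed: 2 of the 5 held more than an even share of 20% in both A and E, 2 held 18.0 and 18.7% in A, and the scarce RNA with 44 counts in section E held 14.9% in E. For 3 of these 5 the highest level was in A, and the other 75 of the 78 were highest in E.

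**Figure D4:**
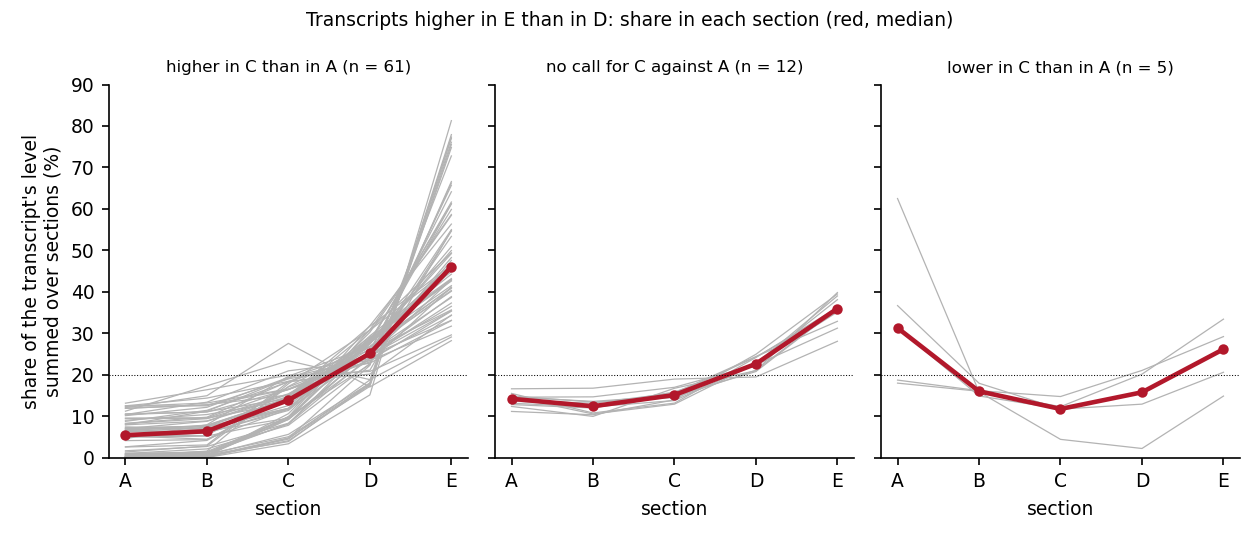
Share of each transcript's level in each section (%, of the level summed over the 5 sections) for the 78 transcripts higher in E than in D, split by their change from A to C. Grey lines are transcripts, red lines medians, and the dotted line is an even share of 20%. The split and the choice of the transcripts set much of these shapes in advance. The 61 in the left panel climb to a median of 46.1% in E, the 12 in the middle to 36.0%, and the 5 on the right have medians of 31.3% in A, 11.8% in C and 26.2% in E.

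Section D held 4 transcripts at higher levels than section E, and 0 of the 4 were called in all 9 fits that left out an egg or a library. trinitytrinLocDN48002c3g2t2 stood at 16.0, 5.54 and 10.9 CPM in section E of eggs 10, 18 and 20, against 29.6, 15.4 and 21.4 CPM in section D. It was lower in E in 3 of 3 eggs, but the groups overlap, since E of egg 10 is above D of egg 18. The means were 10.8 ± 5.25 CPM in E and 22.1 ± 7.12 CPM in D (SD, n = 3), and the log2 change was -1.08 ± 0.18 (SE), with an adjusted p of 0.0166 (edgeR with Benjamini-Hochberg adjustment). trinitytrinLocDN55095c0g1t1 stood at 31.4, 7.73 and 24.0 CPM in E, against 56.2, 20.2 and 41.8 CPM in D. Its groups overlap as well, with means of 21.0 ± 12.1 CPM in E and 39.4 ± 18.1 CPM in D and a log2 change of -0.94 ± 0.19 (SE). Its adjusted p was 0.0489 (edgeR with Benjamini-Hochberg adjustment), and it was above the threshold in each of the 9 fits that left out an egg or a library, at 0.0963 to 0.395. Those fits ended the call of trinitytrinLocDN48002c3g2t2 in 7 of 9, with adjusted p up to 0.301, and kept it only when egg 10 or the D library of egg 20 was removed.

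Both of these RNAs were about as high in section C as in section D. trinitytrinLocDN55095c0g1t1 stood at 46.4 ± 26.3 CPM in C and trinitytrinLocDN48002c3g2t2 at 23.0 ± 7.23 CPM in C, with 22.2 ± 12.5 CPM in B. The other 2 stood at lower levels. One stood at 5.56 ± 1.01 CPM in E and 10.7 ± 0.371 CPM in D, with no overlap. The last had 0 counts in the 3 E libraries and 12, 22 and 7 counts in the D libraries, at least 4.01-fold lower in E if 3 counts per E library are taken as the floor. Its reads may be shared with another transcript of the same assembly gene, which stood at 4.30 CPM in E and 1.72 CPM in D, so how its counts divide is uncertain.

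Most RNAs that were already higher in C than in A differed by less than 2-fold between E and D on the TMM scale. Taking the 2557 transcripts higher in C than in A as a vegetal set, 61 of them, 2.39%, were higher in E than in D, against 0.268% of all transcripts, and 3 were higher in D. These shares were not matched for level. The median log2 change of E over D was 0.11 in this set and -0.02 over all transcripts. The sign of the vegetal median depended on the scale, with the set drawn anew from A and C on each scale. It was 0.45 with the spike-in as scale, where all transcripts had 0.23, and -0.19 with the authors' factor, where all transcripts had -0.29. On the TMM scale the set's median was positive in each egg, at 0.15 in egg 10, 0.09 in egg 18 and 0.09 in egg 20. For 2183 of the 2557, 85.4%, the 95% interval of the E over D ratio lay within 2-fold in either direction, as it did for 71.5% of all transcripts, many of which are too scarce for so narrow an interval. With the spike-in as scale this held for 45.2% of the vegetal set drawn on that scale, which is not the same set of transcripts. Of the vegetal set, 40.3% were higher in E than in D in 3 of 3 eggs, against 16.1% of all transcripts, and 10.9% were lower in 3 of 3, against 17.2%. The 2469 transcripts lower in C than in A, an animal set, had a median of -0.06, and 5 of them were higher in E than in D.

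Transcripts were also grouped by their change from A to C, on the TMM scale. Of all transcripts tested, 0.268% were called higher in E than in D. Where C exceeded A by a log2 change of 1 to 2, the median change from D to E was 0.15. In that group 17 of 1043 transcripts, 1.63%, were called higher in E. For log2 changes of 2 to 3, 3 to 4 and 4 to 5 the medians were 0.18, 0.20 and 0.23. The eggs differed over these 4 groups from 1 to 5: the medians were 0.16, 0.27, 0.31 and 0.40 in egg 10, 0.12, 0.09, 0.02 and 0.07 in egg 18, and 0.16, 0.17, 0.17 and 0.20 in egg 20. Over these groups the median grew with the change from A to C in egg 10, and did not in egg 18. Above 5 the median was 0.50 over 97 transcripts, of which 7 were called higher in E, which is 7.22%, against 0.268% of all transcripts tested. In that last group the median was 0.49 in egg 10, 0.27 in egg 18 and 0.46 in egg 20. Even there the middle part of the transcripts ran from 0.06 to 0.99, that is from almost level to nearly double. Among transcripts with a change from A to C between -0.5 and 0.5, 18 of 21010, 0.0857%, were called higher in E. In the groups where C was below A, by log2 changes of 0.5 to 1, 1 to 2 and more than 2, the medians were -0.07, -0.04 and 0.03. These values describe transcripts of shared libraries and were given no test, and the groups were not matched for level.

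**Figure D5:**
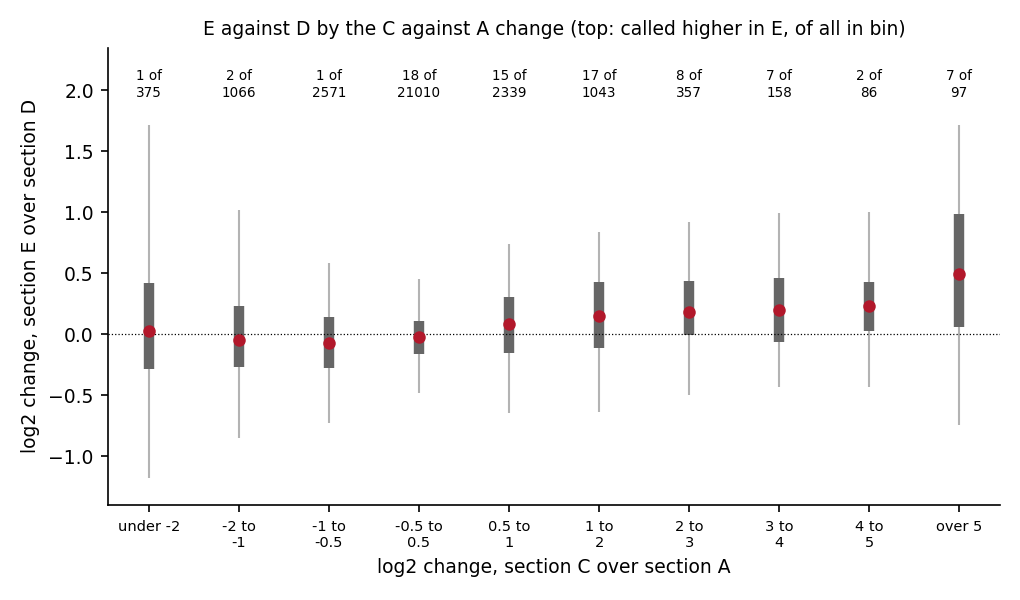
Change of section E over section D (log2, TMM scale, which sets the zero) for all transcripts tested, grouped by their change of section C over section A (log2). Red points are medians, thick bars span the 25th to 75th and thin lines the 5th to 95th percentile. The numbers give how many were called higher in E, and 0.268% of all transcripts tested were called so. Over the 3 eggs together the median is -0.02 in the group around 0 and 0.50 in the group above 5. In the 3 groups where C is below A it is -0.07, -0.04 and 0.03.

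The wider contrast of section E with the mean of sections C and D called more transcripts. It found 1230 higher in E, which is 4.23% of those tested, and 521 lower in E, which is 1.79%, or 6.02% in either direction. At least 2-fold differences were found for 252 higher and 60 lower. Leaving out an egg or a library moved these counts to 567 to 1155 higher and 76 to 599 lower, with the fewest higher without egg 18 and the fewest lower without egg 20. The median log2 change of the 78 in this contrast was 1.08, but section E and section D enter both contrasts. The counts also depended on the scale, with 387 higher and 127 lower in E with the spike-in, and 410 higher and 15228 lower with the authors' factor.

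A direct test of the outer step, from D to E, against the next step inward, from C to D, separated few transcripts. The test takes the signed log2 change from D to E minus that from C to D, so a fall from C to D also gives a positive difference. The difference was called positive for 2 of 29102 transcripts, 0.00687%, and negative for 3, 0.0103%, or 0.0172% in either direction. At an unadjusted p under 0.05 stood 1152. Section D enters both steps, and its own variation moves them in opposite directions. The 7 steep transcripts were also called higher in D than in C, as were 2.01% of all transcripts (2.52% in either direction), and had D to C ratios of 3.18 to 4.62 beside their E to D ratios of 4.05 to 5.36. On the TMM scale their log2 difference between the steps was -0.14 to 0.52, with 95% intervals within -0.87 to 1.61. On that scale a larger outer step was not detectable in them. In 3 of 3 eggs the spike-in took a larger share of counts in D than in C, and than in E. Used as scale, it would therefore raise the difference, and the values of the 7 on it are not given here. With the spike-in as scale the difference was called positive for 78 of all transcripts tested, a count made apart from the 78 higher in E.

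All 5 transcripts called for the steps differed between D and C. trinitytrinLocDN43380c0g1t2 stood at 8.62 CPM in E, 3.97 CPM in D and 30.4 CPM in C, and was highest in A at 85.8 CPM. Its log2 change was 1.17 from D to E and -2.85 from C to D, so the outer step was the smaller in size. Its log2 difference between the steps was 4.02 ± 0.48 (SE), with an adjusted p of 0.00669 (edgeR with Benjamini-Hochberg adjustment). trinitytrinLocDN45193c0g1t1, another RNA highest in A, stood at 14.7 CPM in E, 10.2 CPM in D and 68.8 CPM in C. Here too the log2 change from D to E, 0.56, was smaller in size than that from C to D, -2.77. Neither was called between E and D, with adjusted p of 0.102 and 0.679 (edgeR with Benjamini-Hochberg adjustment). In the other direction, trinitytrinLocDN52128c0g1t2 stood at 622 CPM in E, 549 CPM in D and 205 CPM in C, and trinitytrinLocDN51548c0g2t1 at 185, 197 and 95.7 CPM. Both were called higher in D than in C and not between E and D, where the adjusted p was 0.780 and 0.913 (edgeR with Benjamini-Hochberg adjustment). The remaining one stood at 1214 CPM in E, 900 CPM in D and 302 CPM in C. These calls changed with the libraries. With an egg or a library left out, 0 to 2 differences were called positive and 0 to 10 negative. Without the egg as a block, 0 were called in either direction.

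Calls made without an egg were compared with that egg. Without egg 10, 41 transcripts were called higher in E, and 41 of 41 were higher in E in egg 10, where 54.9% of all transcripts were. Without egg 18 it was 12 of 12, where 44.0% of all transcripts were higher in E in egg 18, and without egg 20 it was 9 of 9, against 54.5%. The median log2 change of these transcripts in the egg left out was 0.99 in egg 10, 1.66 in egg 18 and 1.99 in egg 20. Of the 3 transcripts called higher in D without egg 10, 2 were higher in D in egg 10, and without egg 18 or egg 20 none was called by this test.

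Transcripts of the same assembly gene were compared to find differing use in E and D. Of 601 genes with at least 2 transcripts tested, 0 were called (0.00%, edgeR's diffSpliceDGE with Simes p-values and Benjamini-Hochberg adjustment), and 10 had an unadjusted p under 0.05. Few genes had more than 1 transcript, so the data say little about alternative forms.

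How the 2 sections are put on a common scale bears on all these directions. The files hold a line named as a spike, read here as an added spike-in RNA. It stood at 187, 246 and 167 TMM-scaled CPM in section E of eggs 10, 18 and 20, against 228, 256 and 210 CPM in section D. It was lower in E in 3 of 3 eggs, by ratios of 0.817, 0.960 and 0.795, although an exact paired permutation test of 3 eggs cannot give a p below 0.25. With the spike-in as scale, the median over all transcripts was a log2 change of 0.23 in place of -0.02, and 114 transcripts were higher in E and 5 in D. The factor that the authors divided their counts by, taken relative to the library size after TMM, is larger in E in each egg. Compared with TMM it lowers every E level against D. With it the median was -0.29, and 72 transcripts were higher in E and 3514 in D. All 78 transcripts kept a positive change under both scales, 41 with a call under the spike-in and 51 under the authors' factor, and 0 were called lower in E. Each scale moves all E over D changes by nearly the same amount, less than the smallest log2 change of the 78, 0.43. The kept direction therefore follows from the size of the changes and is no separate evidence.

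What could be seen depended on the level of a transcript. For transcripts of 100 CPM or more, the 95% interval of the E to D ratio reached a median factor of 1.15 in each direction, and at 20 to 100 CPM a factor of 1.20. It was 1.32 at 5 to 20 CPM, 1.71 at 1 to 5 CPM and 2.46 under 1 CPM. No transcript at 1 to 5 CPM was called, although 9455 of the 29102 lie in that range, so moderate differences of scarce RNAs may have been missed in this fit. How far the depth, the number of eggs and the shared estimate of variation each limit the calls was not tested.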

How the data were processed

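The authors deposited whole-number counts per assembled transcript, 1 file per library, and a normalized signal. Within a library the deposited signal is the counts over 1 constant factor. Per the submitters' processing notes, Trimmomatic, STAR 2.5.2b, kallisto and DESeq2 were used, with no roles stated. How the transcripts were assembled is not stated there. The spike-in line (0.0115 to 0.0235% of counts) stayed out of library sizes and tests. Over all 15 libraries the totals were 4347026 to 14500611 counts. How reads were split between similar transcripts is not stated.

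Transcripts were kept by filterByExpr, leaving 29102. The test was edgeR 4.0.16 (R 4.3.3, quasi-likelihood, TMM) with section and egg as terms over all 15 libraries, 8 residual degrees of freedom and Benjamini-Hochberg adjustment at 0.05. It was also run on counts simulated from its own fitted levels and spread, which cannot show how it behaves outside that model. The egg is a block because sections E and D come from the same egg. Deviations from the section means correlated at 0.742, 0.573 and 0.427 between E and D of egg 10, 18 and 20, and at -0.579 to 0.225 between different eggs. The deviations of a section sum to 0 over the eggs, so positive values within eggs push those between different eggs down. The values between different eggs are therefore no separate contrast. Counts of libraries of 1 section differed by at least 8.44 in chi-square per degree of freedom, so none was a repeat. Directions in single eggs used log2 of CPM plus 0.5. Floors cover counting error only.

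The rule for named transcripts took, per direction, the largest change and the highest level among those called, alike in 3 of 3 eggs, with a mean of at least 5 CPM. At most 2 are named per direction, since IDs have no gene names. The transcripts named for the steps were chosen after their values were seen. The comparison, sets and tests were chosen with earlier results of these data known. Alternatives covered scaling, filters, the block, the test (DESeq2 1.42.0), the libraries and sums per assembly gene.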

Additional observations from a re-analysis of the deposited data

Results flagged for a closer look

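The spike-in line and the authors' factor stayed out of the main test and are described here. The spike-in line had 1583 counts or more in each of the 6 libraries of sections E and D. That is above the limit of 3 that a count of 0 allows, which an added RNA passes by design. The line stood at 200 ± 41 TMM-scaled CPM in E and 231 ± 23.2 CPM in D (SD, n = 3). Set against the library size after TMM, the authors' factor was 1.31 ± 0.00754 in E and 1.09 ± 0.00225 in D, a mean ratio of 1.21 with 1.21, 1.20 and 1.21 in the 3 eggs. The spike-in and the deposited factor place E and D on scales that differ in opposite directions from TMM. Which of them follows the amount of RNA per section was not tested.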

How the results depend on the processing

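The direction of the 78 transcripts higher in E held in the 9 fits that left out an egg or a library, while counts of calls moved. Since all 78 were higher in E in 3 of 3 eggs, that direction was nearly fixed in advance and is no separate evidence. It also held in every scaling, where all changes shift by nearly the same amount, less than the smallest log2 change of the 78, 0.43. Leaving out an egg or a library gave 9 to 41 transcripts higher in E and 0 to 3 higher in D. It gave 8 to 31 calls higher in E in the vegetal set and 0 to 4 in the animal set. Against the mean of C and D, it gave 567 to 1155 calls higher and 76 to 599 lower in E. Between the steps, 0 to 2 differences were called positive and 0 to 10 negative. The median change of the vegetal set was then 0.10 to 0.22. The fit to sections D and E only, with replicate block, called 462 and 137 transcripts, at least 2-fold for 60 and 2. Of the 462, 301 were in the vegetal set, 12.0% of its 2510 members tested there, where 1.79% of all were called. The DESeq2 test called 226 higher in E and 23 higher in D, with 72 and 3 shared with edgeR's calls. DESeq2 size factors gave 118 higher in E and no filter 119, each with all 78 among them, and no filter moved the vegetal median to 0.16. Sums per assembly gene called 2 higher in D. The stricter filter and total counts only each left 3 calls higher in E in the animal set. With total counts, 1 difference between the steps was called negative. Without the replicate block, 4 transcripts were higher in E, all of them in the vegetal set and 0 in the animal set, and 0 were higher in D. Then 376 were higher and 6 lower in E than the mean of C and D, 0 differed between steps in either direction, and the vegetal median was 0.19. With the spike-in as scale, 15 of the animal set were higher in E. The vegetal median was 0.45, and 45.2% of the vegetal set had an interval within 2-fold. On that scale 387 were higher and 127 lower in E than the mean of C and D, and 78 differences between the steps were called positive. With the authors' factor, 3514 were higher in D and the vegetal median was -0.19. On that factor's scale 410 were higher and 15228 lower in E than the mean of C and D. There 0 differences between the steps were called negative. Each of these scales shifts a whole library at once, and the vegetal and animal sets were drawn anew on each scale and without the block. The cause of the other differences was not tested. For the 4 named transcripts, 53 alternative values kept the call and 23 kept only the direction.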
